A study of Arabidopsis thaliana with 8 samples.

Results

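AT1G72660 is an Arabidopsis thaliana locus of the developmentally regulated GTP-binding protein (DRG) family, and its mRNA was followed here in total and in polysome-bound RNA of heat-stressed seedlings. It was taken by its locus: of the 22810 probe sets on the array, 13513 were annotated to 1 gene, and exactly 1 was annotated to AT1G72660. The locus was chosen by its rise in heat on these same arrays, in total and in polysome-bound mRNA, so its heat effects are given below as values without a test. RefSeq's annotation of the TAIR10.1 assembly places it on chromosome 1 as a protein-coding gene with 4 transcripts, between TRFL6 and iqd8. Its annotated span overlaps that of iqd8. Neither of these neighbours had a probe set of 1 gene. Which of the transcripts, overlapping genes or related DRG genes the probes match was not examined.

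All seedlings were wild-type Columbia-0, 7 days old and grown on plates under long days, and whole seedlings were used. Control plates came straight from the growth chamber at 22°C, and heat-stressed plates were incubated at 38°C for 45 min. From each seedling sample total mRNA was taken before the sucrose gradient and polysome-bound mRNA from its pooled polysomal fractions, which makes 4 groups of 2 ATH-1 arrays, 8 arrays in all, from 4 seedling samples. The values are log2 signals from robust multi-array averaging (RMA), in which a difference of 1 is a 2-fold change, and with 2 arrays per group the precision of every value is limited.

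DRG proteins are GTPases of the OBG-HflX group, an ancient set of GTP-binding proteins most of which act on or near ribosomes. Eukaryotes carry DRG proteins of closely related sequence, each of which is held by a partner protein, and in yeast the counterpart complexes sit on translating ribosomes and ease their passage through slow stretches of mRNA. An mRNA's signal in the polysomal fractions, set against its signal in total RNA, is read as the degree to which it is being translated. No sequence of the gene, its promoter or its protein was analysed here.

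Before deposition the heat-stressed polysome-bound values had been scaled down for the smaller share of ribosomes in polysomes after heat, by a factor whose log2 was -0.84 in replicate 1 and -0.89 in replicate 2. Their array means were 5.30 and 5.25, against 6.15 to 6.18 on the other 6 arrays. Heat effects in polysome-bound mRNA keep this factor unless stated, and comparisons of the 2 populations have it divided out, so that a difference of 0 means the average of the array. RCA, the Rubisco activase gene and the 1 measured of 11 shoot markers, had signals of 14.00 to 14.25 in total mRNA at 22°C, and the summed signal of the 2 measured of 7 root markers (EXPA7 and GH9C1) was 6.25 to 7.18. Singly, EXPA7 and GH9C1 had group means of 5.87 and 5.54 there, below the array medians of 6.16 and 6.19. Of 6 heat markers 1 was measured, AT1G53540, and it rose from 4.12 to 14.01 in total mRNA (log2 group means), in the direction of the labels. In polysome-bound mRNA at 22°C its signals were 4.17 and 6.22, a wide gap between replicates, beside 4.03 and 4.22 in total mRNA at 22°C.

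At 22°C AT1G72660 was dim in both populations. In total mRNA of control seedlings its log2 signal was 3.90 in replicate 1 and 4.26 in replicate 2. In polysome-bound mRNA of control seedlings it was 4.15 and 4.07. These 4 values lay below the array medians of 6.11 to 6.19 and above the brightest of the 3 trp control probe sets, which carry bacterial sequence and reached 2.91 to 3.05 on the same arrays. At such a level the RMA signal holds background as well as mRNA, so the size of a rise from it is uncertain.

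After 45 min at 38°C the mRNA was among the bright ones. In total mRNA of heat-stressed seedlings the log2 signal of AT1G72660 was 11.49 in replicate 1 and 11.22 in replicate 2. In polysome-bound mRNA it was 10.62 and 10.53 as deposited, and 11.46 and 11.42 with the polysome-content factor divided out. The heat-stressed and control arrays did not overlap in either population, a gap that comes with the choice of the gene by its rise. From the highest, the group means ran 11.36 in total mRNA at 38°C (SD 0.19, n = 2), 10.58 in polysome-bound mRNA at 38°C (SD 0.06), 4.11 in polysome-bound mRNA at 22°C (SD 0.06) and 4.08 in total mRNA at 22°C (SD 0.25). The first 2 differ by more than their spread only because the factor lowers the polysome-bound values: without it they were 11.36 and 11.44, a gap below the SD of total mRNA. The last 2 also differ by less than their spread.

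**Figure D1:**
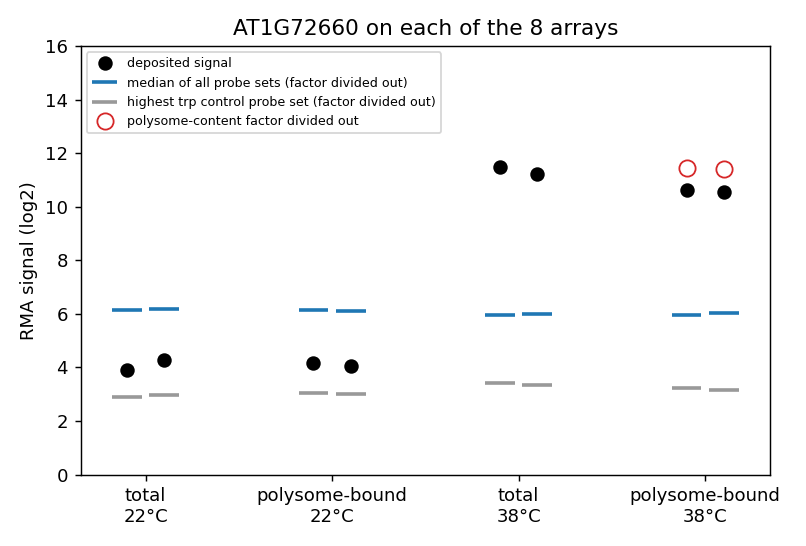
RMA signal of AT1G72660 (log2, y axis) on each of the 8 arrays, by group (x axis). Filled points are deposited values, open circles the heat-stressed polysome-bound values with the polysome-content factor divided out, blue bars each array's median probe set and grey bars its brightest trp control. The control arrays sit between 3.90 and 4.26, below the array medians, and the heat-stressed arrays between 10.53 and 11.49, above them.

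The heat effect in total mRNA was a log2 change of 7.28 (standard error 0.17, n = 2 arrays per group), a 154.9-fold rise, and ranged from 6.96 to 7.59 over the 4 ways to set 1 heat-stressed array against 1 control array. In polysome-bound mRNA it was 6.46 with the factor kept (standard error 0.17), an 88.3-fold rise, ranging from 6.38 to 6.55. With the factor divided out the polysome-bound change was 7.33, or 161.2-fold, and ranged from 7.27 to 7.39. In whole seedlings, a rise in every cell and a larger rise in some cells cannot be told apart. By size of the change AT1G72660 stood at place 25 of 22810 probe sets in total mRNA and at place 24 in polysome-bound mRNA, and at places 12 and 10 among probe sets of 1 gene.

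The genes beside it in that order changed by nearly the same amount. In total mRNA AT2G29500 stood just above, with a log2 change of 7.43 (standard error 0.25), and AT2G20560 just below, with 7.13 (standard error 0.22). In polysome-bound mRNA, with the factor kept, the gene above was AT5G37670 with a log2 change of 6.50 (standard error 0.27) and the gene below AT1G44414 with 6.24 (standard error 0.26). Each gap is smaller than the standard error of the neighbour's own change, so the order among them is not resolved.

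Whether the mRNA followed the bulk into polysomes was asked at each temperature. At 22°C its polysome-bound signal minus its total signal was 0.25 on the log2 scale in seedling sample 1 and -0.19 in seedling sample 2, on opposite sides of the array average. The mean difference was 0.03 (standard error 0.17, adjusted p = 0.998 from limma over 22810 probe sets), with a 95% interval from -0.36 to 0.42. At 38°C, with the factor divided out, the differences were -0.03 and 0.20, and their mean was 0.09 (standard error 0.17, adjusted p = 0.877 from limma, 95% interval from -0.31 to 0.48). The 38°C arrays are among those whose rise chose the gene, so this test is not independent of that choice. Neither temperature showed a departure from the average polysome loading of the array larger than the spread. The interval at 38°C leaves room for departures between 0.809-fold and 1.40-fold. At 22°C both signals were dim and hold background, which can draw their difference toward 0. The interval at 22°C does not cover this, so the loading at 22°C is not settled. Over all probe sets this fit called 0 above and 0 below at 22°C, with 826 and 1147 at an unadjusted p under 0.05, and 0.237% above and 0.986% below at 38°C. With the seedling sample as block, which pairs the total and polysome-bound arrays of the same seedlings, 3.71% were above and 4.77% below at 22°C and 11.3% and 10.4% at 38°C, while AT1G72660 had adjusted p-values of 0.928 and 0.695 from limma.

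The heat effect in polysome-bound mRNA minus that in total mRNA was 0.06 on the log2 scale with the factor divided out (standard error 0.23, limma adjusted p = 0.993). Its 95% interval ran from -0.50 to 0.61, or from 0.708-fold to 1.53-fold, so a moderate departure in either direction was not detectable with these arrays. With the block the standard error was 0.19, the interval ran from -0.37 to 0.48 and the adjusted p was 0.892. This difference is built from the same arrays as the rises that chose the gene. Over all probe sets the fit without the block called 0 above and 0 below, with 549 and 783 at an unadjusted p under 0.05, and the fit with the block called 0.39% above and 0.973% below.

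The relative translation efficiency of AT1G72660, the linear heat effect in polysome-bound mRNA over that in total mRNA with the factor kept, was 0.570. Arrays of replicate number 1 gave 0.460 and those of number 2 gave 0.707 (SD 0.175), and the heat effect in total mRNA was a log2 change of 7.59 by the former and 6.96 by the latter. The average over 13355 genes was 0.555 and the median 0.543, and 59.8% of the genes lay lower than AT1G72660. A gene 1.5-fold below the average would stand at 0.370 and one 1.5-fold above at 0.832, and each replicate of AT1G72660 fell between these limits. The translation efficiency at a single temperature is the polysome-bound over the total signal. It was 1.02 at 22°C and 0.582 at 38°C with the factor kept, or 1.06 at 38°C without it. The value at 22°C, and through it the relative translation efficiency, rests on dim signals that hold background. Among the 107 probe sets with a log2 change of at least 4 in total mRNA, relative translation efficiencies had a median of 0.514 and quartiles of 0.437 and 0.595, a range that holds the value of AT1G72660.

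The relatives measured were 6 further genes of the OBG-HflX group with a probe set of 1 gene, out of 9 listed. The listed DRG1 had no probe set of 1 gene, and whether the probes of AT1G72660 also match it was not checked. By the call used throughout (adjusted p under 0.05 over all probe sets and at least 2-fold), 1 of the 6 rose in total mRNA and 0 fell, against 4.63% of all probe sets rising and 7.06% falling. In polysome-bound mRNA, with the factor kept, 0 rose and 3 fell, against 2.07% and 37.1%. With the factor divided out 1 rose and 0 fell, against 4.73% and 6.49%.

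AT4G39520, the other DRG-type locus measured, was the one that rose. Its log2 signal in total mRNA was 8.55 and 8.55 at 22°C and 10.71 and 10.63 at 38°C. In polysome-bound mRNA it was 8.50 and 8.57 at 22°C and 9.51 and 9.29 at 38°C as deposited. The groups did not overlap in either population, which with 2 arrays per group can occur without a change. The share of all probe sets without overlap was not counted. The change in total mRNA was 2.12 (standard error 0.13, limma adjusted p = 0.00013), a 4.35-fold rise. In polysome-bound mRNA it was 0.86 with the factor kept (standard error 0.13, adjusted p = 0.00114 from limma), short of the 2-fold limit, and 1.73 with the factor divided out (adjusted p = 0.000259), past it. Unlike AT1G72660 it lay above the array medians at 22°C. Its difference between the heat effects was -0.39 on the log2 scale (standard error 0.17, adjusted p = 0.860 from limma, and 0.200 with the block), and its relative translation efficiency was 0.419. At 38°C its polysome-bound signal lay 0.40 below its total signal on the log2 scale, a difference called only with the block (limma adjusted p = 0.179 without it and 0.0266 with it). The fit with the block called 10.4% of all probe sets below at 38°C. Among the relatives it also called AT1G07615 at -0.59 and AT5G57960 at -0.42 (limma adjusted p = 0.0052 and 0.0317). It did not call AT1G30580, AT1G56050 or AT3G49725. The difference of the rises between AT4G39520 and AT1G72660 was not tested, because AT1G72660 was chosen for its rise.

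None of the other 5 OBG-HflX genes was called in total mRNA. The 2 loci listed as YchF-type, AT1G30580 and AT1G56050, had log2 changes of -0.33 (standard error 0.13, adjusted p = 0.107 from limma) and -0.98 (standard error 0.29, adjusted p = 0.0524). On single arrays AT1G30580 went from 9.79 and 9.79 to 9.50 and 9.42 in total mRNA, and AT1G56050 from 8.03 and 8.19 to 7.43 and 6.83. Both fell in polysome-bound mRNA with the factor kept, with log2 changes of -1.14 and -1.75. The OBG-type AT1G07615 had a log2 change of 0.37 in total mRNA (adjusted p = 0.135) and fell in polysome-bound mRNA with -1.11 (adjusted p = 0.000923 from limma, factor kept). The HflX-type AT5G57960 and AT3G49725 had log2 changes of 0.25 and 0.10 in total mRNA and were called in neither population. The factor lowers every polysome-bound change: the median of all probe sets was -0.85 with it and 0.02 without it, and none of the 5 was called with it divided out.

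Of the candidate partner proteins, both had a probe set of 1 gene and neither rose. AT2G20280 had log2 signals of 8.39 and 8.33 in total mRNA at 22°C and of 7.66 and 8.01 at 38°C, a change of -0.52 (standard error 0.15, adjusted p = 0.0474 from limma) that did not reach 2-fold. It fell in polysome-bound mRNA, with a log2 change of -1.48 with the factor kept (adjusted p = 0.000307). AT1G51730 had signals of 8.59 and 8.49 at 22°C and of 9.01 and 8.74 at 38°C in total mRNA, a log2 change of 0.34 (standard error 0.16, adjusted p = 0.168). Its polysome-bound change was -0.95 (adjusted p = 0.00162), just short of 2-fold.

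**Figure D2:**
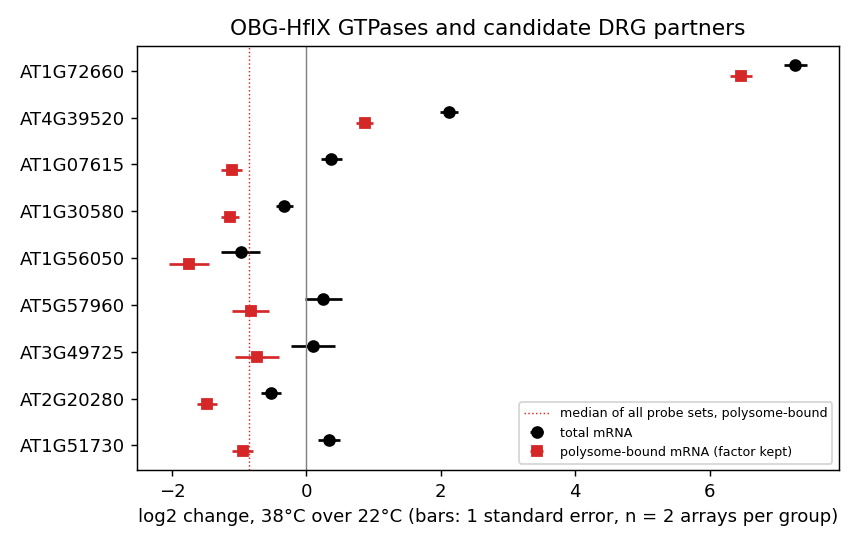
Heat effects (log2 change at 38°C over 22°C, x axis) of AT1G72660, its 6 measured OBG-HflX relatives and the 2 candidate partners (y axis), with bars of 1 standard error. Black circles are total mRNA, red squares polysome-bound mRNA with the factor kept, and the dotted line is the median of all probe sets in polysome-bound mRNA (-0.85); AT1G72660 stands at 7.28 and 6.46, AT4G39520 at 2.12 and 0.86, and the rest between -1.74 and 0.37.

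Further GTPases and ribosome-linked factors were drawn from lists of cytosolic translational GTPases, organellar translational GTPases, ribosome-assembly GTPases and stalled-ribosome factors. With the relatives and partners they came to 31 measured genes of 65 listed, AT1G72660 not counted among the 31. In total mRNA 1 of the 31 (3.2%) rose, AT4G39520, and 2 (6.5%) fell, shares close to the 4.63% and 7.06% of all probe sets. In polysome-bound mRNA 0 rose and 19 (61.3%) fell with the factor kept, beside 2.07% and 37.1% of all probe sets. With the factor divided out 1 rose and 1 fell, beside 4.73% and 6.49%. Their median log2 change in total mRNA was -0.28, against 0.03 over all probe sets, and spanned -1.61 to 2.12.

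Both genes that fell in total mRNA were organellar. FUG1, a plastid translation initiation factor, went from log2 signals of 10.78 and 11.00 to 9.02 and 9.54, a change of -1.61 (standard error 0.24, adjusted p = 0.00456 from limma). AT4G11160, listed with the organellar GTPases, went from 7.37 and 7.41 to 6.18 and 6.04, a change of -1.28 (standard error 0.18, adjusted p = 0.00372). The other 3 organellar genes measured, AT5G08650, AT5G39900 and AT4G02930, had log2 changes of -0.78, -0.74 and -0.13 and were not called in total mRNA. Of the 5 organellar genes 4 fell in polysome-bound mRNA with the factor kept, beside 37.1% of all probe sets, and 1, FUG1, with the factor divided out, beside 6.49%.

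None of the 6 cytosolic translational GTPases measured was called in total mRNA, beside 4.63% of all probe sets rising and 7.06% falling. Their changes there ran from -0.96 to 0.06. In polysome-bound mRNA 3 fell with the factor kept, beside 37.1% of all probe sets, and 0 with it divided out, beside 6.49%. The largest of these changes in total mRNA was that of AT1G76810, at -0.96 (standard error 0.23, adjusted p = 0.0237 from limma), just short of 2-fold. Next came AT1G21160 at -0.56 and AT1G18070 at -0.42. Of the 8 ribosome-assembly GTPases 0 were called in total mRNA (-0.77 to 0.33), beside the same 4.63% and 7.06%. In polysome-bound mRNA 7 fell with the factor kept, beside 37.1%, but 0 with it divided out, beside 6.49%. AT5G66470 and AT1G50920, among the 7, had total changes of -0.77 and -0.50. AT4G10620 followed with -0.46. Of the 4 stalled-ribosome factors 0 were called in total mRNA, beside 4.63% and 7.06%. In polysome-bound mRNA 1 fell with the factor kept, AT5G10630 at -1.02, beside 37.1%, and 0 with it divided out, beside 6.49%. PEL1 encodes Pelota, a protein that helps free stalled ribosomes. Its log2 change in total mRNA was 0.81 (standard error 0.18, adjusted p = 0.0211 from limma), short of 2-fold. AT5G10630 and ILA, a relative of the yeast factor Gcn1, had -0.53 and -0.52 in total mRNA.

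**Figure D3:**
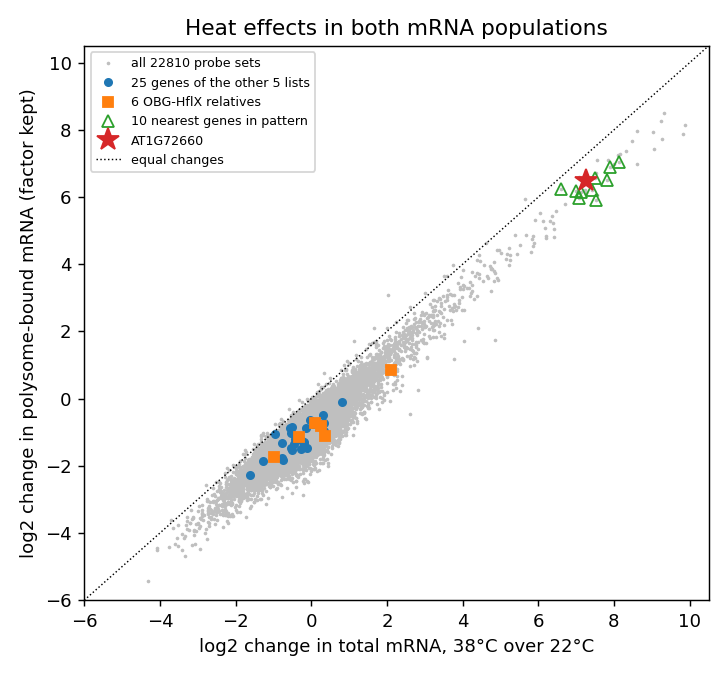
Log2 change in total mRNA (x axis) against log2 change in polysome-bound mRNA with the factor kept (y axis) for all 22810 probe sets (grey). The star is AT1G72660 at 7.28 and 6.46, orange squares its 6 OBG-HflX relatives, blue points the genes of the other lists, and green triangles the 10 genes nearest to it in pattern; it lies inside the cloud of strongly rising probe sets, below the dotted line of equal changes, while the listed genes other than AT4G39520 lie below 1 on the x axis.

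Likeness of pattern was measured as the Euclidean distance over the 8 arrays, with each probe set centred on its own mean and the factor divided out, among the 13512 other probe sets of 1 gene. The nearest was AT5G48570, the FKBP-type immunophilin also called ROF2, at a distance of 0.389, with log2 group means of 5.98 and 13.50 in total mRNA at 22°C and 38°C, and of 6.16 and 12.74 in polysome-bound mRNA. Its log2 changes were 7.51 in total and 6.58 in polysome-bound mRNA, beside 7.28 and 6.46 for AT1G72660. AT2G20560 followed at 0.696 and Hop3, an Hsp70-Hsp90 organizing co-chaperone, at 0.791. Then came AT5G07330 at 0.872, AT1G44414 at 0.918, AT2G29500 at 0.969, AT5G37670 at 1.02, AT5G25450 at 1.05, AT5G10695 at 1.07 and AT5G51440 at 1.21. The median distance was 10.26, and 16 probe sets lay within 2.

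The distance chose these 10 genes for a rise of similar size, and differences in polysome loading among them were not tested. AT5G25450 rose by 7.53 in total and by 5.92 in polysome-bound mRNA, with a relative translation efficiency of 0.330. In total mRNA at 22°C all 10 had means below the array medians. AT1G44414, the dimmest of them at 22°C (4.10 in total and 4.04 in polysome-bound mRNA), rose by 6.59 and 6.24 and had 0.785. The other 8 had 0.405 to 0.564. Among these, the next dimmest in total mRNA at 22°C were Hop3 and AT5G51440, both at 4.90, with 0.498 and 0.471. AT1G44414 was the only one of the 10 above the 0.570 of AT1G72660, whose replicate numbers gave 0.460 and 0.707. The distance rests mostly on the size of the heat step, so it says little of the rest of the pattern. Ranked by Pearson correlation over the 8 arrays instead, 3 of the 10 were the same genes.

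**Figure D4:**
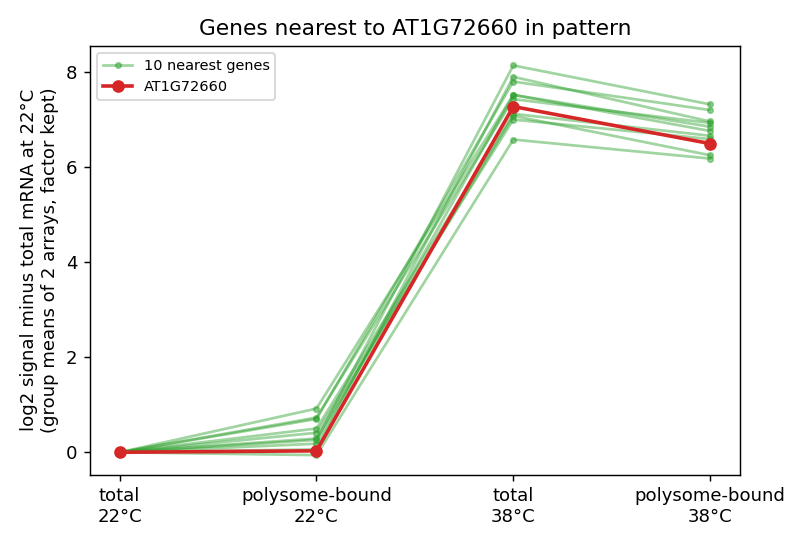
Group means of AT1G72660 (red) and of the 10 genes nearest to it (green), as log2 signal minus that gene's total mRNA at 22°C (y axis, factor kept), in the 4 groups (x axis). All 11 lines step up by 6.59 to 8.13 in total mRNA. At 22°C AT1G72660 is nearly level between total and polysome-bound mRNA, as are Hop3 (4.90 and 4.96) and AT1G44414 (4.10 and 4.04), all from dim signals.

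Of the nearest 5 genes with a probe set of 1 gene on each side of AT1G72660 on the chromosome, 10 in all, 1 rose and 0 fell in total mRNA, beside 4.63% and 7.06% of all probe sets, with log2 changes from -0.98 to 1.01. The one that rose, AT1G72760, had a log2 change of 1.01 (standard error 0.12, adjusted p = 0.00162 from limma), from a dim 2.80. AT1G72570, AT1G72580 and AT1G72600 were dim as well, at 2.74, 2.70 and 3.04 in total mRNA at 22°C. The brightest trp controls reached 2.91 and 2.98 there, so the changes of these dim genes can hardly be read. AT1G72640, the closest on one side, had log2 means of 7.24 and 7.26 in total mRNA at 22°C and 38°C, a change of 0.01 (standard error 0.21, adjusted p = 0.966). AT1G72700, the closest on the other, had a change of -0.98 (standard error 0.28, adjusted p = 0.0438), just short of 2-fold. PSD, which encodes the tRNA export factor PAUSED, had a log2 change of 0.15 in total mRNA. In polysome-bound mRNA 0 of the 10 rose and 5 fell with the factor kept, beside 2.07% and 37.1% of all probe sets. The 5 include the dim AT1G72600. With the factor divided out 0 rose and 1 fell, AT1G72730, beside 4.73% and 6.49%. The adjacent iqd8 and TRFL6, which had no probe set of 1 gene, are not among these genes and were not analysed here.

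**Figure D5:**
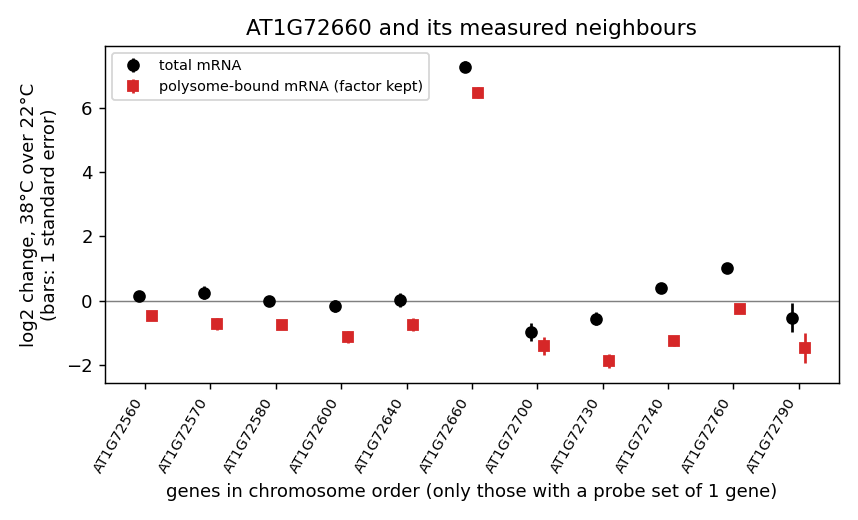
Heat effects (log2 change at 38°C over 22°C, y axis, bars of 1 standard error) of AT1G72660 and the 5 measured genes on each side in chromosome order (x axis, not to distance). Total mRNA is black and polysome-bound mRNA with the factor kept is red; AT1G72660 stands at 7.28 and 6.46 and its neighbours between -1.87 and 1.01.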

How the data were processed

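Total and polysome-bound RNA of 4 Arabidopsis seedling samples was measured on 8 ATH-1 arrays. The deposited values are log2 signals for which the authors used RMA in affy (version not given in the sources used here) and then scaled the heat-stressed polysome-bound columns by the polysome-content factor. Every per-sample column was used. For all 22810 probe sets together, limma 3.58.1 (lmFit, eBayes) under R 4.3.3 fitted a mean for each group with 4 residual degrees of freedom, and p-values were adjusted by Benjamini-Hochberg. Heat effects counted as calls when they reached 2-fold, exactly 2-fold included, and their adjusted p was below 0.05, and differences between populations on the adjusted p alone. The replicates of a group are biological by the paper, and total and polysome-bound arrays of equal number come from the same seedlings: deviations from the group means correlated within these pairs (r = 0.786 for 22°C, 0.762 for 38°C). The arrays give no depth, and their number limits the precision.

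Genes were named from the platform annotation and RefSeq (TAIR10.1), which matched 13436 of 13513 probe sets by gene ID, with the brightest probe set kept per gene in lists and among chromosome neighbours. Loci were put into the GTPase lists from general knowledge of the families, not from an annotation in the files. The gene, lists and rules were chosen with earlier results of these data known. Named are AT1G72660, the DRG relatives and partners, up to 3 genes per other list with the largest change in total mRNA, the 10 nearest in pattern, 5 measured chromosome neighbours on each side and the neighbours in rank. Other genes are named where a small count is spelled out, after their values were seen. Alternatives covered the scaling, the filter on dim probe sets, the test, the block, the factor and single arrays. The fits were tested on simulated data. Python 3.11.15 served for tables (pandas 2.3.3, numpy 2.4.6) and for plots (matplotlib 3.10.9). The promoter and protein of the gene were not analysed here.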

Additional observations from a re-analysis of the deposited data

How the results depend on the processing

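The rise of AT1G72660 was present under each alternative run, from 7.09 to 7.49 on the log2 scale in total mRNA and from 6.42 to 7.33 in polysome-bound mRNA. It moved beyond the spread between arrays (pooled SD 0.162) in total mRNA after centring each array on its median (7.49) and with 1 array left out (7.09 to 7.46), and in polysome-bound mRNA with the factor divided out (7.33). With 1 array left out and the factor kept, the polysome-bound change was 6.42 to 6.51.

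The polysome loading of AT1G72660, near 0, changed sign without being called. With 1 array left out it was -0.15 to 0.21 at 22°C and -0.047 to 0.22 at 38°C, and the difference between heat effects was -0.12 to 0.24, or -0.007 with arrays centred on their medians. Only with the factor kept did these values pass the threshold, at -0.78 at 38°C (adjusted p = 0.00469 from limma) and -0.81 for the difference (adjusted p = 0.0241), where the factor itself is part of the value. The replicate block by seedling sample changed no call for AT1G72660. Its relative translation efficiency was 0.503 to 0.646 with 1 array left out, 0.460 and 0.707 by replicate number and 1.04 with the factor divided out.

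Of the 31 listed genes, those rising in total mRNA became 2 with arrays centred on their medians and those falling became 1 under limma's treat test against 1.5-fold. In polysome-bound mRNA 1 rose, AT4G39520, and not 0, with arrays centred on their medians, after cyclic loess, or with the factor divided out, where 1 fell and not 19. With 1 array left out 1 rose and 2 to 3 fell in total mRNA, and 0 rose and 18 to 20 fell in polysome-bound mRNA. A block by replicate number across temperatures (r of 0.523 and 0.438 between deviations) left these counts at 1, 2, 0 and 19. With the factor divided out 4.73% of all probe sets rose and 6.49% fell in polysome-bound mRNA. For the other alternatives the share of all probe sets was not counted. Those counts show only how stable the calls were, not how the listed genes stand against the array. The paper took the polysome content after heat over that of the control within each biological replicate, which pairs the temperatures by replicate. The main fit of the heat effects did not use this pairing. The 10 nearest genes shared 9 or 10 members with those found without 1 array.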
